A study of Mus musculus with 6 samples.

Results

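The genes described here are 7 complement components that macrophages make: C1qa, C1qb, C1qc, C3, C4b, Cfb and Cfp. They were taken by name, after matching the Ensembl gene IDs of the count table to mouse symbols, and all 7 were among its 25751 genes. The table holds poly(A)-selected RNA-seq counts of primary myeloid cells from wild-type mice. It has 3 libraries of cells treated with TMAO (trimethylamine N-oxide, an oxidised amine made in the liver from a product of gut bacteria) and 3 Control libraries without it, all labelled 24 h. The labels give no dose, mouse strain, sex or age. They name the treated columns T-BMDM and the others Control without explaining the difference, and leave unsaid whether replicate libraries stem from different cultures or mice. The p-values therefore cover no more than the variation among these 6 libraries, possibly technical in origin. The comparison of TMAO with Control asked how TMAO alters transcripts in myeloid cells; here it is read for C1q on the one hand and for C3 and the alternative pathway on the other.

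Complement is a cascade of serum proteins that marks particles for uptake. C1q is built of A, B and C chains, encoded by C1qa, C1qb and C1qc, and starts the classical pathway when it binds antibody complexes, apoptotic cells or other targets; macrophages are its main source. C1q activates the proteases C1r and C1s, which cleave C4 and C2. All pathways meet at C3, whose cleavage deposits C3b on the target. In the alternative pathway factor B (Cfb) pairs with C3b to form the convertase that cleaves more C3, and properdin (Cfp) stabilises that convertase.

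The complement transcripts moved in different directions. C1qa and C1qb were higher in TMAO than in Control libraries, C1qc was higher by a small amount, C3 and Cfb were lower, Cfp did not pass the test, and C4b was near the limit of counting in both groups. Of the 7 genes, 6 had enough counts to be tested; 3 were called higher and 2 lower, at an adjusted p under 0.05 (quasi-likelihood test of edgeR, p-values adjusted by Benjamini-Hochberg over all genes tested). Over all 14626 genes tested, 65.7% were called, 33.0% higher and 32.7% lower, so a call by itself is common in these data. For 5 of the 6 tested genes the TMAO and Control libraries did not overlap in CPM, as was the case for 71.0% of all genes tested. CPM are counts relative to library size, scaled between libraries with TMM factors.

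**Figure D1:**
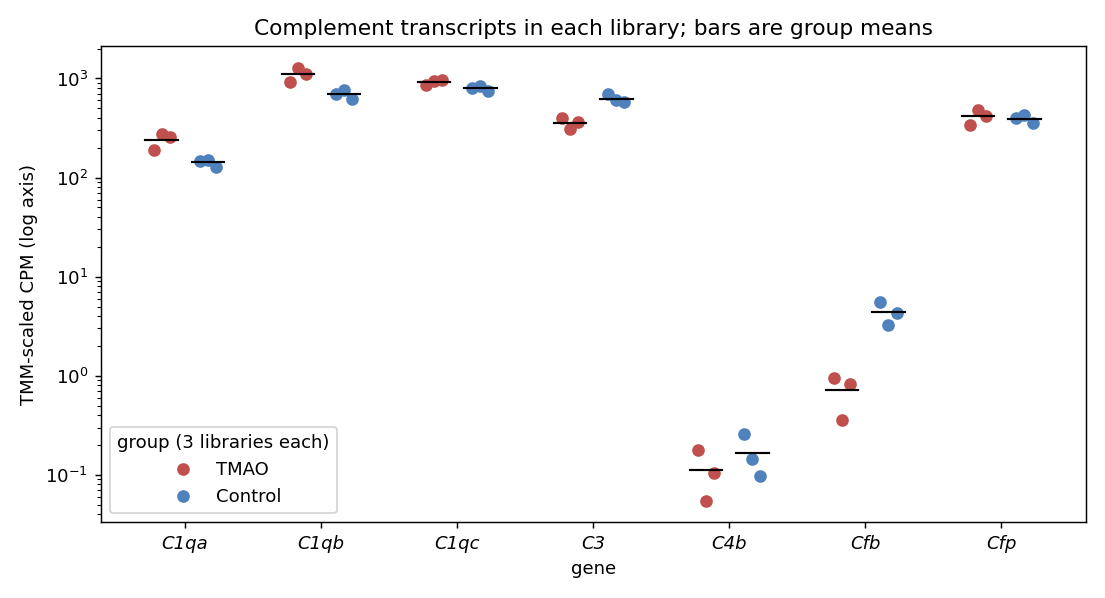
TMM-scaled CPM (log axis) of the 7 complement genes in the 3 TMAO and the 3 Control libraries; each point is 1 library and each bar a group mean. C1qa, C1qb and C1qc lie higher in all TMAO libraries, C3 and Cfb lie lower in all of them, and the groups overlap for C4b and Cfp.

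Library totals ran from 37759007 to 41735109 counts. Lyz2 (lysozyme), Csf1r (the receptor of the macrophage growth factor CSF-1) and Cd68 were abundant in both groups, at 37357, 2108 and 1324 CPM in TMAO libraries and 37023, 2560.1 and 2324 CPM in Control libraries. Beside the marker counts in this paragraph stand the shares over all genes tested, 65.7% called, 33.0% higher and 32.7% lower. The macrophage markers were called at a share near the first of these, since 1 of the 10 rose and 6 fell. Their summed level (41211 to 49986 CPM in TMAO libraries, 43365 to 48032 CPM in Control libraries) was mostly Lyz2, which made up 79.8% to 83.8% of it and was not called. The sum of the other 9 (8095 to 8557 CPM in TMAO, 7913 to 8460 CPM in Control) joins opposite changes: Cd14, the marker that rose, was at 3726 CPM with TMAO and 522 CPM in Control, and Fcgr1, among those that fell, was at 59.9 CPM with TMAO and 251 CPM in Control. Of 18 markers of neutrophils and their precursors, 15 rose and 2 fell, with summed levels of 4557 to 5817 CPM in TMAO and 490.2 to 537 CPM in Control libraries. All 7 monocyte markers rose (1033 to 1084 CPM in TMAO, 179 to 228 CPM in Control). Of the dendritic cell markers 4 of 5 tested rose (9.10 to 10.7 CPM in TMAO, 2.03 to 3.09 CPM in Control), and of the B cell markers 5 of 6 (32.5 to 34.8 CPM in TMAO, 9.06 to 11.4 CPM in Control). Fibroblast and stromal markers, of cells that also make complement, were low (8 genes, 8.89 to 10.5 CPM in TMAO, 5.58 to 5.84 CPM in Control). Of the 6 tested, 2 rose (Pdgfrb and Pecam1), and Col1a1, Col1a2, Col3a1 and Dcn were not called. The 4 hepatocyte markers with counts were lower still (0.0550 to 1.62 CPM in TMAO, 0.0483 to 0.291 CPM in Control). Summed over the TMAO libraries, no listed marker with a row was at 0. Alb, Apoa1, Ttr, Fga and Cd209a were still at 0 in at least 1 TMAO library each. Fga and Cd209a were at 0 in every Control library. In bulk RNA of this kind, fewer cells of a type and less RNA per cell cannot be told apart, and the part of these other cells in the complement results was not tested.

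C1qa, the gene of the A chain, had 189, 276 and 254 CPM in TMAO libraries 1 to 3, against 148, 149.8 and 129 CPM in Control libraries 1 to 3. All TMAO libraries lay above all Control libraries, and TMAO library 1 lay closest to them. The means were 239.7 ± 45.4 CPM with TMAO and 142 ± 11.7 CPM in Control (SD, n = 3 each), a fold of 1.69 (log2 fold change 0.75, SE 0.13, edgeR adjusted p = 0.000612).

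C1qb, the gene of the B chain, had 911, 1288 and 1103 CPM in TMAO libraries, against 695, 759 and 615 CPM in Control libraries. The groups again did not overlap, with TMAO library 2 highest and TMAO library 1 lowest of the treated libraries, as for C1qa. The means were 1101 ± 189 CPM with TMAO and 689.9 ± 71.9 CPM in Control (SD, n = 3 each), a fold of 1.60 (log2 fold change 0.67, SE 0.13, edgeR adjusted p = 0.00105).

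C1qc, the gene of the C chain, had 860.2, 954 and 962 CPM in TMAO libraries, against 801, 839 and 751 CPM in Control libraries. The lowest TMAO library stood only slightly above the highest Control library. The means were 925 ± 56.7 CPM with TMAO and 797 ± 44.1 CPM in Control (SD, n = 3 each), a fold of 1.16 (log2 fold change 0.22, SE 0.09, edgeR adjusted p = 0.0498). This call sat at the threshold: it was lost without TMAO replicate 2 (edgeR adjusted p = 0.0842), TMAO replicate 3 (0.170), Control replicate 1 (0.150), Control replicate 2 (0.0606) or Control replicate 3 (0.171). The adjusted p ranged over all alternatives from 0.0242 to 0.925.

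The 3 chains, which join in equal numbers in the C1q protein, did not change by the same factor. The log2 ratio of C1qc to C1qa counts was 2.19, 1.79 and 1.92 in TMAO libraries, against 2.44, 2.48 and 2.55 in Control libraries, so each TMAO library was lower than each Control library. The log2 ratio of C1qc to C1qb was -0.24 ± 0.18 in TMAO and 0.21 ± 0.07 in Control libraries (SD, n = 3 each), also without overlap. The log2 ratio of C1qa to C1qb was -2.20 ± 0.08 in TMAO and -2.28 ± 0.06 in Control libraries, and the groups overlapped. Expressed per kilobase of the longest annotated transcript, C1qc supplied 38.5% ± 2.96 of the C1q signal with TMAO and 46.3% ± 1.13 in Control, C1qb 50.1% ± 2.37 with TMAO and 44.2% ± 1.13 in Control, and C1qa 11.4% ± 0.797 with TMAO and 9.54% ± 0.255 in Control (SD, n = 3 each). Together the C1q genes took 0.200% to 0.242% of all counts in TMAO libraries and 0.153% to 0.173% in Control libraries.

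Beside these values, the macrophage marker genes Adgre1 (526 CPM with TMAO, 1705 CPM in Control), Mertk (16.3 CPM with TMAO, 162 CPM in Control) and Maf (55.3 CPM with TMAO, 181 CPM in Control) were called lower in the same libraries. C1qa and C1qb were therefore higher in libraries where several other macrophage genes were lower.

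The 3 C1q genes lie next to each other on mouse chromosome 4. The windows upstream of C1qb and C1qc are shown because these neighbours differed in the size of their change, and that of C3 because C3 went the other way. RefSeq's promoter table (build GRCm38.p6) held C1qb, C1qc, C3 and Cfp; the counts themselves were made on GRCm39, so the positions belong to the older build. Each line gives the 250 bases before the annotated start, 5′ to 3′ on the gene's own (minus) strand, at chr4:136886201-136886450 for C1qb, chr4:136892915-136893164 for C1qc and chr17:57228137-57228386 for C3. Capitals mark matches to the motifs searched.
C1qb: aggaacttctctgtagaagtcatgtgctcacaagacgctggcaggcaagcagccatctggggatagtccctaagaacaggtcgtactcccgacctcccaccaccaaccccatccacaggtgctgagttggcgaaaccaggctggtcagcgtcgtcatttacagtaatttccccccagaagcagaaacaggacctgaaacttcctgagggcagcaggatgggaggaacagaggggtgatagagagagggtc
C1qc: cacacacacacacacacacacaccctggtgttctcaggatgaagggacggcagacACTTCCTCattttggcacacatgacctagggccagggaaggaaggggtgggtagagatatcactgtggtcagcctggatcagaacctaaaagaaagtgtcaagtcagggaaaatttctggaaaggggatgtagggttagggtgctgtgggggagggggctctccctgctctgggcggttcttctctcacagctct
C3: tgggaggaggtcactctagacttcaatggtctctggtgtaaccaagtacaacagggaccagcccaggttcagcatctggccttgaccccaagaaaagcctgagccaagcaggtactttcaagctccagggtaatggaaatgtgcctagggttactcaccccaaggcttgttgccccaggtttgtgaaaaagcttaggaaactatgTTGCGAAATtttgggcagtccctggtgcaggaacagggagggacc

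Motifs were searched on both strands in the 4 windows and in all 32851 windows of the table. They were GAGGAAGT for PU.1 (the myeloid ETS factor), TGCTGAC for MAF factors, TTGCNNAAT for C/EBP, GGANTTTCC for NF-kB, GAAANNGAA for interferon response elements and GGAANNGAA for joint ETS and IRF sites; matches of the last 2 can overlap. The C1qc window held 1 PU.1 match, starting 195 bases upstream on the opposite strand, and 2.44% of all windows held that motif. The C3 window held 1 C/EBP match, starting 45 bases upstream, and 2.11% of all windows held it. None of the 6 motifs matched in the C1qb or Cfp windows. The shares of all windows for the other motifs were 3.81% (MAF), 1.07% (NF-kB), 7.13% (interferon response) and 6.99% (ETS with IRF). These matches describe letters in a window and not bound sites.

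C3, the central component of the cascade, had 401, 307 and 365 CPM in TMAO libraries, against 699, 604 and 580.1 CPM in Control libraries. All TMAO libraries lay below all Control libraries, and TMAO library 2 was lowest. The means were 358 ± 47.5 CPM with TMAO and 628 ± 63.0 CPM in Control (SD, n = 3 each), 1.76-fold lower with TMAO (log2 fold change -0.81, SE 0.12, edgeR adjusted p = 0.000135). The C3 call was kept under every alternative fit tried, with adjusted p at most 0.00133. Markers of fibroblasts and hepatocytes, which also make C3, were low in both groups, as given above.

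Cfb, factor B, had 0.959, 0.358 and 0.834 CPM in TMAO libraries (38, 13 and 32 counts), against 5.58, 3.29 and 4.31 CPM in Control libraries (217, 136 and 178 counts). It was low in both groups and lower in each TMAO than in each Control library. The means were 0.717 ± 0.317 CPM with TMAO and 4.39 ± 1.15 CPM in Control (SD, n = 3 each), 6.07-fold lower with TMAO (log2 fold change -2.60, SE 0.33, edgeR adjusted p = 6.56e-05). Of all genes tested, 1.37% had a lower log2 fold change. In the GENCODE annotation of GRCm38, a readthrough gene, Gm20547, shares 81.4% of the 50-base windows of the longest Cfb transcript on the same strand. That gene was not analysed here, and reads from the shared exons may have been split or lost in the authors' counting, so the level of Cfb is uncertain.

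Cfp, properdin, had 343, 478 and 421 CPM in TMAO libraries, against 398, 431 and 355 CPM in Control libraries. The groups overlapped, with TMAO libraries both at the bottom and at the top. The means were 414 ± 67.7 CPM with TMAO and 395 ± 38.1 CPM in Control (SD, n = 3 each), and Cfp was not called (log2 fold change 0.07, SE 0.13, edgeR adjusted p = 0.641). Neutrophils and monocytes also hold properdin, and their markers were higher in the TMAO libraries by the amounts given above.

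C4b, the target of C1s in the classical pathway, had 7, 2 and 4 counts in TMAO libraries, against 10, 6 and 4 counts in Control libraries. It did not pass the filter on low counts and was not tested. The ratio of its summed counts per library total, TMAO over Control, was 0.677 (exact 95% binomial interval 0.309 to 1.43, counting error only), so a difference was not detectable at this depth. Of all values from 1 to 10 in the count table, 72.0% to 73.8% per library were even, as when both reads of a pair are counted; the interval treats reads as independent and would then be too narrow. C4a, the near copy of C4b, contains 35.2% of the 50-base windows of the longest C4b transcript, and reads may have been split between them. C4a itself had 40, 21 and 17 counts in TMAO libraries, against 11, 15 and 6 counts in Control libraries. It was called higher (log2 fold change 1.35, SE 0.49, edgeR adjusted p = 0.0306), but not without TMAO replicate 1 (0.154), Control replicate 1 (0.0700) or Control replicate 3 (0.108), nor with the GC trend removed (0.0541); over all alternatives the adjusted p was 0.00903 to 0.154. No 50-base window of the longest C1qa, C1qb, C1qc, C3 or Cfp transcript occurred in a transcript of another gene.

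Per kilobase of the longest annotated transcript, the order of levels in TMAO libraries was C1qb (1012 ± 173 CPM per kb), C1qc (769 ± 47.1), Cfp (253 ± 41.4), C1qa (230.5 ± 43.6), C3 (69.6 ± 9.24), Cfb (0.261 ± 0.115) and C4b (0.0208 ± 0.0114). In Control libraries it was C1qc (662 ± 36.7 CPM per kb), C1qb (634 ± 66.1), Cfp (241 ± 23.3), C1qa (137 ± 11.3), C3 (122 ± 12.3), Cfb (1.60 ± 0.418) and C4b (0.0309 ± 0.0153). Among neighbours in these orders, Cfp and C1qa overlapped between libraries with TMAO, and in Control C1qc overlapped with C1qb and C1qa with C3. Among 14598 genes ranked by this level, C1qb and C1qc stood at ranks 50 and 82 with TMAO and 62 and 59 in Control, and C3 at rank 992 with TMAO and 434 in Control.

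Set against C3 within each library, each C1q chain gene was relatively higher with TMAO. The lack of overlap in the ratios over C3 and Cfb follows from the CPM given above and adds no separate support. Every chain was higher, and C3 and Cfb were lower, in all TMAO libraries. The log2 ratio of C1qb to C3 counts was 1.18, 2.07 and 1.60 in TMAO libraries, against -0.01, 0.33 and 0.09 in Control libraries. All TMAO libraries were above all Control libraries, and the group means differed by 1.48 on the log2 scale, a 2.79-fold change of the ratio. For C1qa over C3 the difference was 1.55 (TMAO -0.59 ± 0.47, Control -2.14 ± 0.12; SD, n = 3 each) and for C1qc over C3 it was 1.03 (TMAO 1.38 ± 0.27, Control 0.35 ± 0.14). Against Cfb the differences were 3.41 for C1qa, 3.34 for C1qb and 2.89 for C1qc, again with no overlap of the groups. With a trend on transcript length removed, the differences over C3 were 0.77 for C1qa, 0.71 for C1qb and 0.27 for C1qc, and those over Cfb were 3.05, 2.98 and 2.55 in the same order.

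Against Cfp the differences were smaller. The log2 ratio of C1qb to Cfp was 1.41, 1.43 and 1.39 in TMAO libraries, against 0.81, 0.82 and 0.79 in Control libraries. This ratio varied little within a group (SD 0.02 in TMAO, 0.01 in Control), although C1qb alone ran from 911 to 1288 CPM in the TMAO libraries. C1qa over Cfp differed by 0.68 without overlap, and C1qc over Cfp by 0.15 with overlap. No p is given for these ratios, since the genes were chosen, and 3 against 3 libraries cannot give an exact permutation p below 0.10.

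**Figure D2:**
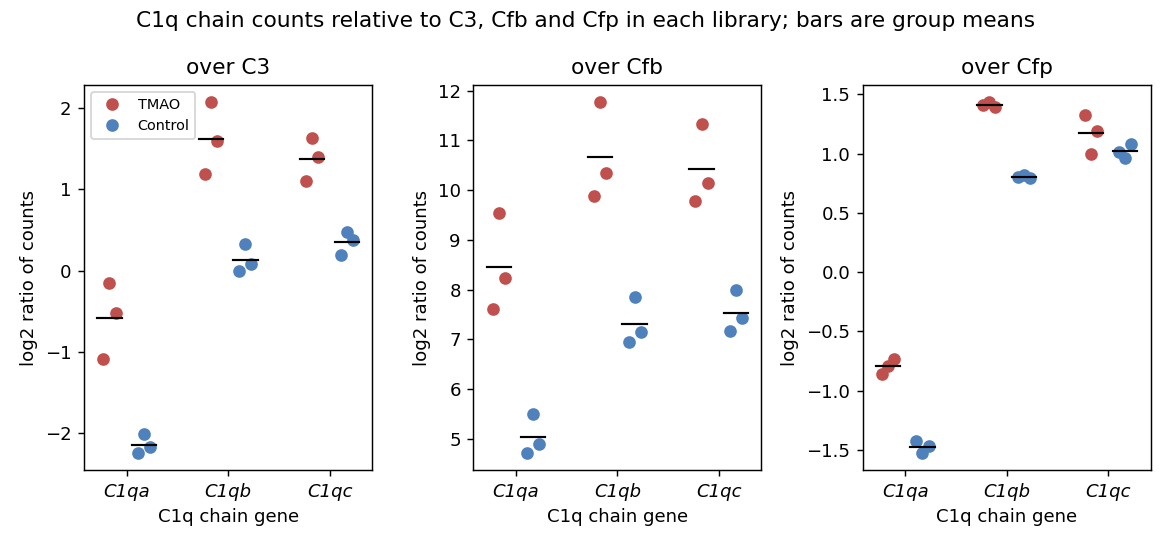
Log2 ratio of the counts of each C1q chain gene to C3, Cfb and Cfp; each point is 1 library (3 TMAO, 3 Control), bars are group means, and each panel has its own vertical scale. The TMAO libraries lie above the Control libraries in 8 of the 9 ratios, and the groups overlap for C1qc over Cfp. The ratios share genes. Those over C3 and Cfb had to separate, because each chain was higher and C3 and Cfb lower in all TMAO libraries.

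The size of the C1q changes moved when a trend on transcript length was removed. With all genes tested split into 5 equal groups by their longest transcript, the group of shortest genes (up to 1526 bases) had a median log2 fold change of 0.49 and the group of longest genes (above 4927 bases) one of -0.53. The longest transcripts of C1qa, C1qb and C1qc measured 1040, 1088 and 1203 bases and belonged to the group of shortest genes, while that of C3, at 5136 bases, belonged to the group of longest. With the length trend removed, the log2 fold change was 0.31 for C1qa (edgeR adjusted p = 0.00807), 0.24 for C1qb (0.0177), -0.47 for C3 (0.00111) and -2.67 for Cfb (3.39e-05). These 4 kept their direction and their call. C1qc turned to a log2 fold change of -0.19 (edgeR adjusted p = 0.0254) and Cfp to -0.26 (0.0198), both called lower, so that 2 of the 6 tested genes were higher and 4 lower. In that fit 9624 of all 14626 genes tested were called, 5032 higher and 4592 lower, so such calls were common. With the trend on GC content removed, C1qa was at 0.50 (edgeR adjusted p = 0.00514) and C1qb at 0.45 (0.00772), while C1qc was at -0.01 (0.925).

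**Figure D3:**
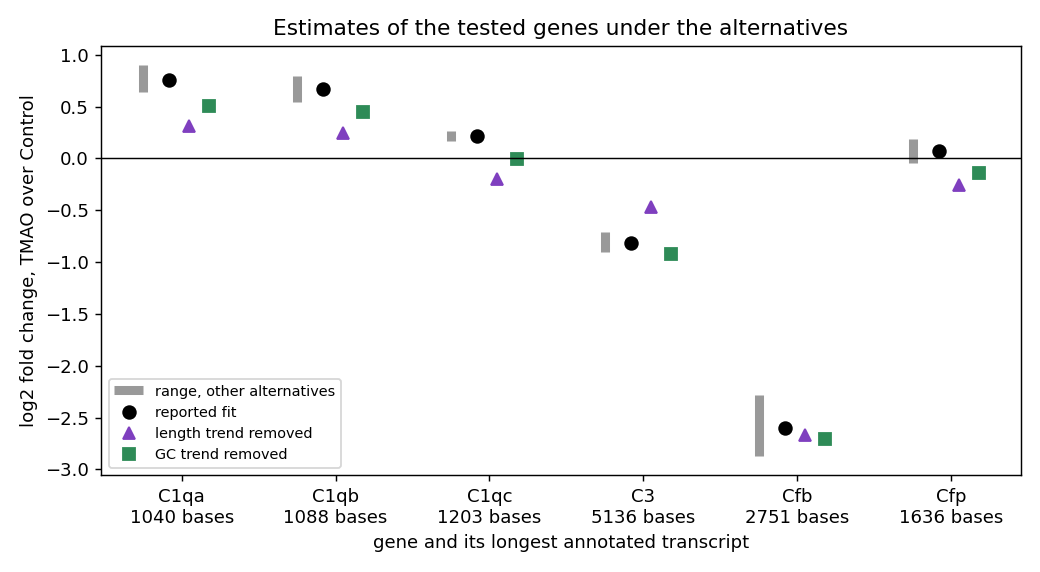
Log2 fold change, TMAO over Control, of the 6 tested genes in the reported fit (circles), with the length trend removed (triangles), with the GC trend removed (squares) and over the other alternatives (grey bars, lowest to highest), with the longest annotated transcript of each gene below its name. C1qa and C1qb stay above 0 and C3 and Cfb below 0 throughout, while C1qc and Cfp cross 0.

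The rest of the complement pathway was read from a list of 51 other genes by role, of which 44 had a row and 26 were tested. Of these, 5 rose, 14 fell and 7 did not pass the test, with a median log2 fold change of -0.74, beside 0.0050 over all genes tested, of which 33.0% were called higher and 32.7% lower. Among the 5 tested partners of C1q and the classical pathway, 3 fell. C1ra, the first protease that C1q activates, was at 8.15 ± 1.09 CPM with TMAO and 14.0 ± 0.597 CPM in Control (log2 fold change -0.78, SE 0.13, edgeR adjusted p = 0.000431). C1s1 and C1s2, genes of the second protease, were below 2 CPM in both groups and fell with log2 fold changes of -1.01 and -1.81 (edgeR adjusted p = 0.0117 and 0.0150). The C1s2 call was lost without TMAO replicate 1 (0.0637) or Control replicate 1 (0.0649), within a range of 0.0119 to 0.0649 over the alternatives. C2 had 23 counts with TMAO and 60 counts in Control in all and was not called (edgeR adjusted p = 0.0721). C1qa and C1qb were higher, and the proteases that C1q activates lower, in the same libraries.

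In the lectin pathway, where ficolins and collectins bind sugars, Fcnb rose and Colec12 fell. Fcnb, ficolin B of granulocyte and monocyte lineages, was at 37.5 ± 4.01 CPM with TMAO and 0.0993 ± 0.0282 CPM in Control (SD, n = 3 each; log2 fold change 8.52, SE 0.21, edgeR adjusted p = 1.83e-09). It is itself one of the neutrophil markers that rose. Colec12, a membrane collectin, was at 17.5 ± 3.10 CPM with TMAO and 46.3 ± 2.13 CPM in Control (log2 fold change -1.40, SE 0.13, edgeR adjusted p = 6.01e-06), and its log2 fold change was -0.79 with the length trend removed. Fcna, ficolin A, was at 5.48 ± 0.554 CPM with TMAO and 4.45 ± 0.376 CPM in Control and was not called (edgeR adjusted p = 0.106). Cfd, factor D of the alternative pathway, had 4 counts in all with TMAO and 0 in Control, and of the 6 terminal pathway genes with a row, C8g was the only one tested and was not called (edgeR adjusted p = 0.215), although taking out the length trend made it called lower, at a log2 fold change of -0.84 (0.0380).

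The genes that hold complement in check were lower or not called, with 1 exception. Cr1l, which encodes Crry, the main rodent membrane regulator of C3, was at 75.1 ± 2.91 CPM with TMAO and 104 ± 1.97 CPM in Control (log2 fold change -0.46, SE 0.08, edgeR adjusted p = 0.000485), but at -0.03 with the GC trend removed (0.706, the highest of its alternatives). Named after their values were seen, Cd46 and Cd55, membrane regulators below 2 CPM in both groups, fell with log2 fold changes of -1.86 and -0.83. The exception, also named after its value was seen, was Clu (clusterin, an inhibitor of the terminal complex), at 3.64 ± 0.752 CPM with TMAO and 2.08 ± 0.417 CPM in Control (log2 fold change 0.80, SE 0.23, edgeR adjusted p = 0.0101), a call lost with the length trend removed (0.0644, at a log2 fold change of 0.51).

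Receptors and binding proteins moved in both directions. Of 11 tested, 2 rose and 6 fell, a share called near the 65.7% of all genes tested. C3ar1, the receptor of the C3a fragment, was at 568 ± 10.4 CPM with TMAO and 1347 ± 24.0 CPM in Control (log2 fold change -1.25, SE 0.08, edgeR adjusted p = 5.02e-07). Itgax, a subunit of complement receptor CR4, was at 23.1 ± 2.50 CPM with TMAO and 56.9 ± 0.710 CPM in Control (log2 fold change -1.30, SE 0.10, edgeR adjusted p = 2e-06). Lrp1, an endocytic receptor, and Cd93, first described as a C1q receptor, had log2 fold changes of -1.44 and -1.25 (edgeR adjusted p = 6.28e-06 and 8.39e-06). Both were smaller once the length trend was taken out, at -0.51 for Lrp1 and -0.72 for Cd93, and still called lower. Other members are named after their values were seen. Itgb2, the shared integrin chain of CR3 and CR4, fell (744 ± 72.0 CPM with TMAO, 1473 ± 74.8 CPM in Control), as did Vsig4, a macrophage receptor for C3 fragments (5.81 ± 0.806 CPM with TMAO, 9.42 ± 0.903 CPM in Control). Itgam, the other chain of CR3, was at 255 ± 20.2 CPM with TMAO and 267 ± 19.5 CPM in Control and was not called (edgeR adjusted p = 0.542). The 2 that rose were C5ar1, the receptor of C5a (490.5 ± 32.2 CPM with TMAO, 328 ± 17.4 CPM in Control; log2 fold change 0.58, SE 0.09, edgeR adjusted p = 0.000186), and C1qbp, a largely mitochondrial protein that binds C1q (88.8 ± 4.83 CPM with TMAO, 53.8 ± 6.81 CPM in Control; log2 fold change 0.72, SE 0.11, edgeR adjusted p = 0.000160). C5ar1 is also found on neutrophils and monocytes, whose markers were higher in the TMAO libraries.

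**Figure D4:**
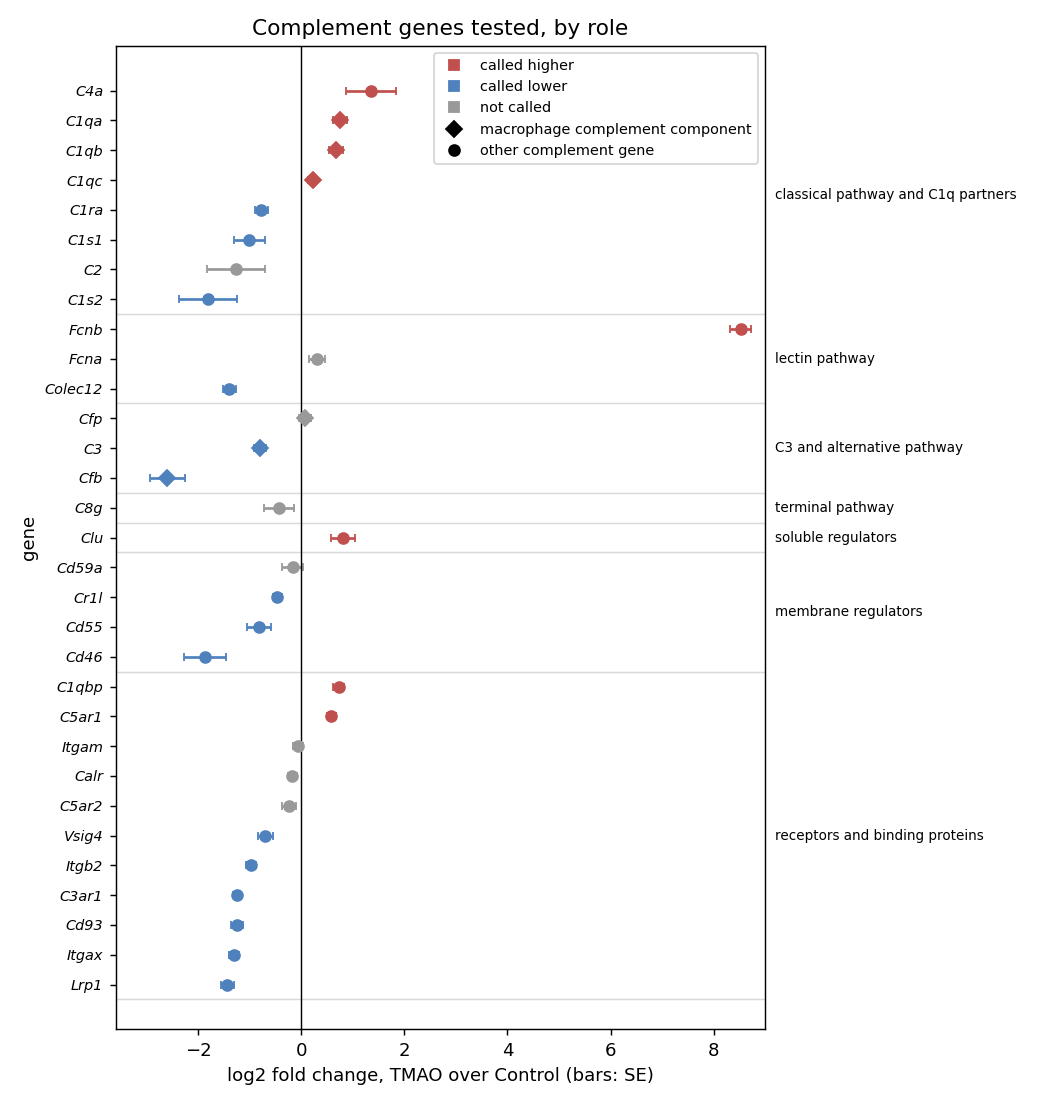
Log2 fold change, TMAO over Control, with SE, of complement genes tested, grouped by role; diamonds are the macrophage complement components and circles the other genes, coloured by the edgeR call. C1qa, C1qb and C1qc lie above 0 while C1ra, C1s1 and C1s2 lie below it, and Fcnb stands far to the right at 8.52.

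Some genes followed the same course over the 6 libraries as the complement genes. Likeness was measured as the root mean square distance between log2 CPM profiles centred on each gene's mean, over the 9173 genes that averaged 5 CPM or more, and is a description of 6 libraries without a p. The nearest to the mean of the 3 C1q chains were Mvb12a (0.0207), Katna1 (0.0253) and Chmp4b (0.0278). Their log2 fold changes were 0.56, 0.51 and 0.52. The chains themselves differed, at 0.75 for C1qa, 0.67 for C1qb and 0.22 for C1qc, so these genes are near the mean and not near each chain. The nearest to C3 were Trim32 (0.0415), Zfp846 (0.0479) and Anks1 (0.0539). The nearest to Cfb were Map3k12 (0.127), Siglec1 (0.134) and Nectin4 (0.138), and to Cfp Pde6d (0.0357), Tmem219 (0.0374) and Fcer1g (0.0375). The added 0.5 shrinks the Cfb profile, since Cfb was at 0.358 to 0.959 CPM in TMAO libraries. Map3k12, Siglec1 and Nectin4 fell less than Cfb, with log2 fold changes of -2.09, -1.86 and -2.30 against -2.60. The distances were smaller for C1q, C3 and Cfp than for Cfb, which had few counts. Several of these distances came in large part from 1 library and were smaller without it. Without TMAO replicate 1 the distance of Siglec1 was 0.0212, and without TMAO replicate 3 those of Mvb12a and Tmem219 were 0.0125 and 0.0222. Without Control replicate 1 that of Trim32 was 0.0215, without Control replicate 2 those of Chmp4b and Nectin4 were 0.0145 and 0.0579, and without Control replicate 3 that of Anks1 was 0.0210. With the length trend removed the distances of the genes named ran from 0.0505 (Mvb12a) to 0.360 (Siglec1).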

How the data were processed

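The deposited table holds raw whole-number counts for each Ensembl gene in the 6 libraries, made by the authors without normalization; columns were matched to samples by the sample descriptions. Reads came from oligo(dT)-selected, randomly primed paired-end libraries, per the labels' protocols, which list 2 sequencer makes but not the one used for each library; a platform difference between groups cannot be told apart from the treatment. Per the submitters' processing notes, the genome build was GRCm39; the aligner, counter, strand setting and annotation were not given in the sources used here. Symbols came from GENCODE M21 by gene ID (25386 of 25751 IDs matched), as did transcript lengths and GC content (GRCm38, no coordinates used).

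Genes were tested with edgeR 4.0.16 (R 4.3.3): filterByExpr by group (minimum count 10) kept 14626 genes, TMM factors, and a quasi-likelihood F test of TMAO against Control without covariates, with Benjamini-Hochberg adjustment and a threshold of 0.05. SE is the log2 fold change divided by the square root of F. The steps were run on simulated counts, where 33.3% of genes set to a 1.5-fold change were called. At a 2-fold change 70.8% were called, and of unchanged genes 0.0354%. Few genes were changed there and no length or GC trend was put in. It therefore cannot check the scaling for data where 65.7% of genes were called. Alternatives were DESeq2 1.42.0, limma-voom (limma 3.58.1), other scalings, filters and moderations, a replicate block, removal of length and GC trends per library by lowess, and leaving out each library. Within each group, any 2 libraries differed by more than sampling noise (chi-square per degree of freedom 13.0 to 65.6). Of the other complement genes, those called with a mean of at least 5 CPM were named, up to 4 per role by smallest p; C4a, C1s1, C1s2, C2, Fcna, Cfd, C8g and Calr fall outside this rule, like those marked in the text, and were named after their values were seen. The members, lists and motifs were chosen with earlier results of these data known. The letters of 3 motifs (NF-kB, interferon response, ETS with IRF) were shortened after a first search of the windows had been seen; the matches in the members' windows were the same. Some genes counted in the lists are not reported here by name.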

Additional observations from a re-analysis of the deposited data

How the results depend on the processing

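The number of the complement components called lower was 2 in every alternative except removal of the length trend, which gave 4. Over all genes, 4778 were called lower in the reported fit and 4592 with the length trend removed. C1qa, C1qb, C3 and Cfb kept direction and call in every alternative. C1qc was no longer called with library size as the only scaling (log2 fold change 0.18, adjusted p = 0.0644), without a count filter (0.19, 0.130), or with another moderation (0.22, adjusted p = 0.0500007), robust moderation (0.22, 0.0521) or the replicate block (0.22, 0.0592); it turned with the length (-0.19) or GC trend removed (-0.0085), and ran from 0.17 to 0.26 with 1 library left out. Cfp turned to -0.26 with the length and -0.14 with the GC trend removed, and ran from -0.043 to 0.19 with 1 library left out. With the length trend removed, the log2 differences between groups were 0.77 for C1qa over C3, 0.57 for C1qa over Cfp, 0.71 for C1qb over C3, 0.50 for C1qb over Cfp and 0.27 for C1qc over C3, and Fcna turned to -0.081 and Itgam to 0.21, neither called, while C8g (-0.84, adjusted p = 0.0380) and Calr (-0.36, 0.00101) became called lower. Length and GC content were known for 99.8% of the genes tested. The causes of the length and GC trends were not tested. Deviations from the group mean correlated at 0.032, 0.133 and -0.067 between same-numbered libraries 1, 2 and 3. Between libraries of different number they correlated at -0.189 to 0.159. With 3 libraries per group these values cannot show whether the numbers pair the samples. With the replicate number as a block 9723 genes were called, against 9608 without it. Depth limits C4b, with 13 counts in TMAO and 20 in Control libraries, and to a lesser degree Cfb and C4a.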
